A study of Homo sapiens with 18 samples.

Results

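The genes described here are 47 components and close partners of the DNA replication machinery, among 18475 genes measured in all. They were chosen by their values in the small cell lung cancer line H446, where replication genes were among those lowest after radiation relative to the line's controls. The H446 values are therefore given as a description without a test. The rule used no value of the other 2 cell lines, although their results were known when the members were chosen. All 47 symbols matched an identifier of the table, and all 47 passed the filter on low values in each line.

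DNA replication starts at origins that are licensed in G1. The origin recognition complex, CDC6 and CDT1 load the ring-shaped MCM2-7 helicase onto DNA, and geminin (GMNN) blocks CDT1 outside that window. In S phase the kinase CDC7 with its activator DBF4, together with CDC45 and the GINS complex, turns the loaded ring into an active helicase. Polymerase alpha with primase then lays down primers, the RFC complex loads the sliding clamp for polymerases delta and epsilon, RPA covers single-stranded DNA, and FEN1, DNA2 and LIG1 join the lagging-strand fragments. Transcription of many of these genes is driven by E2F factors at the entry into S phase.

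RNA was sequenced from 3 lung-derived cell lines, each without radiation and 24 h after a dose of 10 Gy X-rays. BEAS-2B is an immortalised bronchial epithelial line, A549 a lung adenocarcinoma line and H446 a small cell lung cancer line. All carry the label wild type and no other agent is named. Each of the 6 groups held 3 libraries, 18 in total. The study states that its experiments were repeated but not whether these libraries came from separate cultures, so the p-values measure the spread between these libraries, which may be technical.

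Levels are given as FPKM, a level scaled to transcript length and library size, summing to between 461255 and 529936 per library. The unit was inferred from the values. The number of reads behind a value was not recovered, so counting intervals are not given. Of the epithelial markers, KRT8 was abundant in every line, between 500.3 and 596 FPKM in BEAS-2B, 519 and 595 FPKM in A549, and 1246 and 1393 FPKM in H446, while KRT19 did not exceed 2.47 FPKM in H446, EPCAM 0.60 FPKM in A549 or CDH1 0.74 FPKM in BEAS-2B and H446. The neuroendocrine genes CHGA, SYP and NCAM1 did not exceed 0.29 FPKM in any H446 library, and UCHL1 of the same list stood between 15.3 and 23.5 FPKM there. Several of them were higher in the lines not labelled small cell carcinoma, with UCHL1 between 495 and 565 FPKM in A549 and between 258 and 285 FPKM in BEAS-2B, SYP up to 2.13 and CHGA up to 1.19 FPKM in A549, and NCAM1 up to 5.48 FPKM in BEAS-2B. The adenocarcinoma markers NKX2-1 and SFTPB did not exceed 0.20 FPKM in A549, and NAPSA reached 0.94 FPKM. Of the basal airway markers in BEAS-2B, KRT5, KRT14 and TP63 did not exceed 0.18 FPKM, and KRT17 stood between 159 and 188 FPKM. In H446, KRT17 was higher, between 721 and 915 FPKM, as were KRT14, between 1.69 and 2.64 FPKM, and TP63, between 0.70 and 0.95 FPKM. In bulk RNA, fewer cells of a kind and less RNA per cell cannot be told apart, which for replication genes includes fewer cells in S phase.

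Promoters that carry E2F words are shown because many members share them. The window ran from 250 bases before to 50 bases after the transcription start in the RefSeq promoter set (GRCh38.p14), where 39 of the 47 members had an entry. The words searched were TTTCCCGC, TTTGGCGC, TTTCGCGC and TTTGCCGC on both strands, and they may overlap one another. Of the 39 members, 20 held at least 1 of them in any of their promoters (51.3%), against 6.76% of 10615 genes tested in A549, BEAS-2B or H446. Counted per promoter entry and not per gene, 3.31% of all 35116 entries held at least 1. The 6 promoters printed first belong to the E2F-word members with the lowest H446 fold changes for which a sequence is shown here, with the words in capitals and each sequence read along the gene's strand. They lie at chr16:85688905-85689204 (minus strand) for GINS2, chr20:33686336-33686635 (minus) for E2F1, chr6:52284693-52284992 (minus) for MCM3, chr2:135876394-135876693 (minus) for MCM6, chr3:127598161-127598460 (plus) for MCM2 and chr16:88803539-88803838 (plus) for CDT1.
GINS2: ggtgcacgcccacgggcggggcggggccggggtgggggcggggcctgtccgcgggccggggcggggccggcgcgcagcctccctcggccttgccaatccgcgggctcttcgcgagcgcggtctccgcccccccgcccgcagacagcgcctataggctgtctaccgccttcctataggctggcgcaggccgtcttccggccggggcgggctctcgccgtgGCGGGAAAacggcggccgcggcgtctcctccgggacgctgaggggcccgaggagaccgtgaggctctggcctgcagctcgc
E2F1: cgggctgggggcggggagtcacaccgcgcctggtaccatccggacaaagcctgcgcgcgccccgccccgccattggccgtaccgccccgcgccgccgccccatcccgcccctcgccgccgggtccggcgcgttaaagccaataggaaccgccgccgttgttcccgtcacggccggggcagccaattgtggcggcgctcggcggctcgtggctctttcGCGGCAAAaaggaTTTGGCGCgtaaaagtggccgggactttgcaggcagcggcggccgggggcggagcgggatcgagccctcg
MCM3: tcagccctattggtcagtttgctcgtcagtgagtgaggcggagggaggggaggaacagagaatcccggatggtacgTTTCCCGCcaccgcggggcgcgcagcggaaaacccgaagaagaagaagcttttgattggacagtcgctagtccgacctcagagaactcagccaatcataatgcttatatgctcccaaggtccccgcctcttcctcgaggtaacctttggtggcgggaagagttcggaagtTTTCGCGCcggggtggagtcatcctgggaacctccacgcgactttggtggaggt
MCM6: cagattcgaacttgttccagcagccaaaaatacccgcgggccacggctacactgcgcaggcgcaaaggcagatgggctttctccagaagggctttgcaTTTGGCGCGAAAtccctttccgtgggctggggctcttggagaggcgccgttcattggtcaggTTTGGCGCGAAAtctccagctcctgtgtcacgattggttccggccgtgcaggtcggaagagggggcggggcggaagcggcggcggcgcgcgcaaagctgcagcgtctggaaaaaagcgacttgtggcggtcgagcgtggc
MCM2: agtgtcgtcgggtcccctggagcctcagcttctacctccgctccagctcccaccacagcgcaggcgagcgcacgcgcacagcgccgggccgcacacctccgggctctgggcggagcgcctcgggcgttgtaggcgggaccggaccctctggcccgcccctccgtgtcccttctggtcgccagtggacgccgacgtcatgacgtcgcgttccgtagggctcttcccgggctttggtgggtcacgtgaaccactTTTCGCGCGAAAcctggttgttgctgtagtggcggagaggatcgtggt
CDT1: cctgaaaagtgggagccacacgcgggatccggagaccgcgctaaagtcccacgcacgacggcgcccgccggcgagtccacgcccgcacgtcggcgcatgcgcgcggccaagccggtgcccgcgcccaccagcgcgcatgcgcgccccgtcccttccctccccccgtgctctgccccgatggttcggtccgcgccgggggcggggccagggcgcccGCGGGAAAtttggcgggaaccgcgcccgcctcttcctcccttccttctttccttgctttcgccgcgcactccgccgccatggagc
In MCM6 and MCM2 the words overlap on opposite strands and read as longer runs of capitals. The word nearest to the start site begins 2 bases after it in MCM2, 4 bases before it in MCM3, 20 bases before it in E2F1 and 31 bases before it in GINS2.

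The DBF4 promoter is printed as a contrast, and was chosen after its values were seen, because DBF4 ran against most members in H446. It held none of the E2F words, as was true of 19 of the 39 members. RFC3, the other member above its controls in H446, held an E2F word. DBF4 was the 1 member of the 39 (2.56%) with TTTGAA, the CHR word known from genes active in G2 and mitosis. That word was held by 13.7% of tested genes and, per entry, by 15.2% of all promoters. The match is in capitals, on the opposite strand, and the window lies at chr7:87876243-87876542 on the plus strand.
DBF4: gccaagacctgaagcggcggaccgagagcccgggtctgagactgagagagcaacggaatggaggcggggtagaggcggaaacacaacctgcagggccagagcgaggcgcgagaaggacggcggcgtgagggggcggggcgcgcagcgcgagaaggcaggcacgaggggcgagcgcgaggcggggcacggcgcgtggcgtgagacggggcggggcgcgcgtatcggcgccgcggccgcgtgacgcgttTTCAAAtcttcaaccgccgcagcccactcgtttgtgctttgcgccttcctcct
CCAAT on either strand was present for 23 of the 39 members (59.0%), against 43.4% of tested genes and, per entry, 34.6% of all promoters. These matches describe letters and are not evidence of binding.

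Before radiation, A549 had the lowest mean level for 42 of the 47 members and BEAS-2B the highest for 35. The median ratio of the control means was 2.60 for BEAS-2B to A549 and 1.88 for H446 to A549. In the test of A549 controls against BEAS-2B controls, 45 members were lower in A549 and 0 were higher (limma, adjusted p under 0.05), where 83.8% of all 13071 genes passed in either direction and 45.4% were lower. The members' median difference was -1.33 on the log2 scale, beside -0.07 for all genes tested. The 10 listed genes of G2 and mitosis were also all lower in A549 controls, with a median of -1.04, and of 47 further replication genes 33 were lower and 10 higher, with a median of -0.85. GINS3 and TIPIN were the 2 members that did not pass. ATAD2, a chromatin ATPase, had 20.6 ± 1.41 FPKM in A549 and 105 ± 5.25 FPKM in BEAS-2B (SD, n = 3), a log2 difference of -2.29 (SE 0.06, limma adjusted p = 1.59e-17). MCM4 reached 14.8 ± 0.856 FPKM in A549 and 92.2 ± 4.19 FPKM in BEAS-2B, which amounted to a log2 difference of -2.56 (SE 0.07, limma adjusted p = 1.98e-16). For the flap endonuclease FEN1 the levels were 17.8 ± 0.486 and 102 ± 2.57 FPKM, with a log2 difference of -2.45 (SE 0.06, limma adjusted p = 2.41e-17). The A549 libraries lay below those of BEAS-2B without overlap for 45 members, where 45.7% of all genes lay below, and below those of H446 for 39, where 42.7% did. TIPIN had similar levels throughout, at 22.5 ± 1.27 FPKM in A549, 20.9 ± 1.64 in BEAS-2B and 23.6 ± 1.90 in H446.

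**Figure D1:**
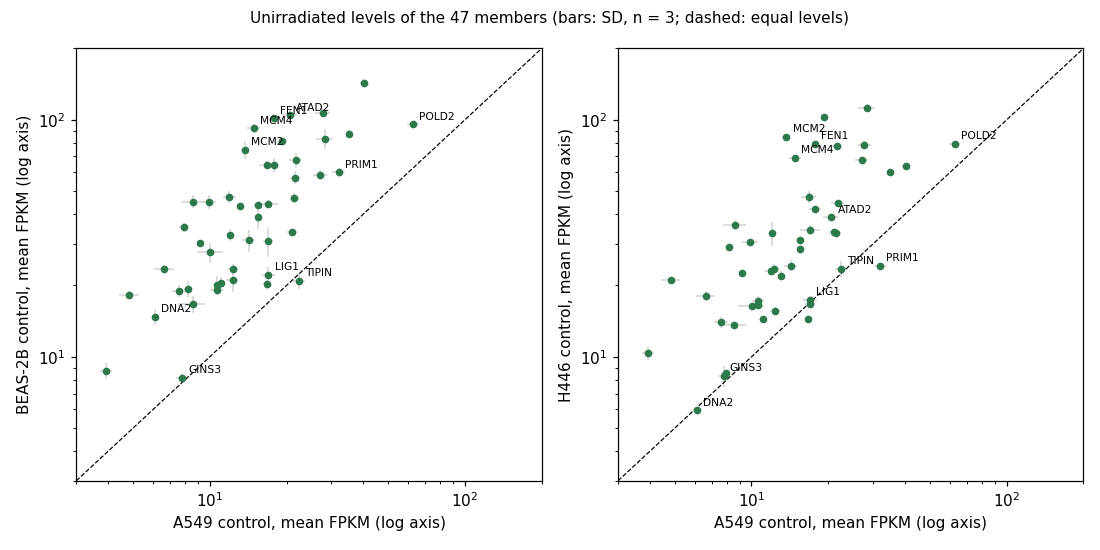
Mean FPKM of the 47 members in unirradiated A549 (horizontal) against BEAS-2B (left, vertical) and H446 (right, vertical), on log axes, with SD over 3 libraries. Most points lie above the dashed line of equal levels, A549 being the lowest line for 42 members, and TIPIN and GINS3 lie close to it in both panels.

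To ask how the machinery responded to radiation, each line was compared with its own controls. In H446 cells, whose values chose the members and carry no test here, the irradiated libraries lay below all controls for 40 of the 47 members, above them for 2 (DBF4 and RFC3) and overlapped for 5 (ORC6, GMNN, RFC1, RPA3 and DNA2), where 29.9% of all 11479 genes lay below and 20.4% above. The limma threshold marked 40 of the 47, beside 38.4% of all genes, a count set by the choice of members from which nothing is read. Of these 40, PRIM2 was lost in 12, GINS3 in 9 and RFC3 in 2 of 16 other settings. The median log2 fold change of the 47 members was -0.41, beside -0.03 for all genes. In A549 cells, whose values the rule did not use, 22 members fell, 7 rose and 18 did not pass (limma, adjusted p under 0.05), so that 61.7% passed against 51.7% of all 11993 genes. Those that fell made up 46.8% of the members against 26.4% of all genes, and those that rose 14.9% against 25.3%. The A549 median was -0.12, beside 0.00 for all genes. In BEAS-2B cells 0 members passed, as did 0.0% of all 11734 genes.

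**Figure D2:**
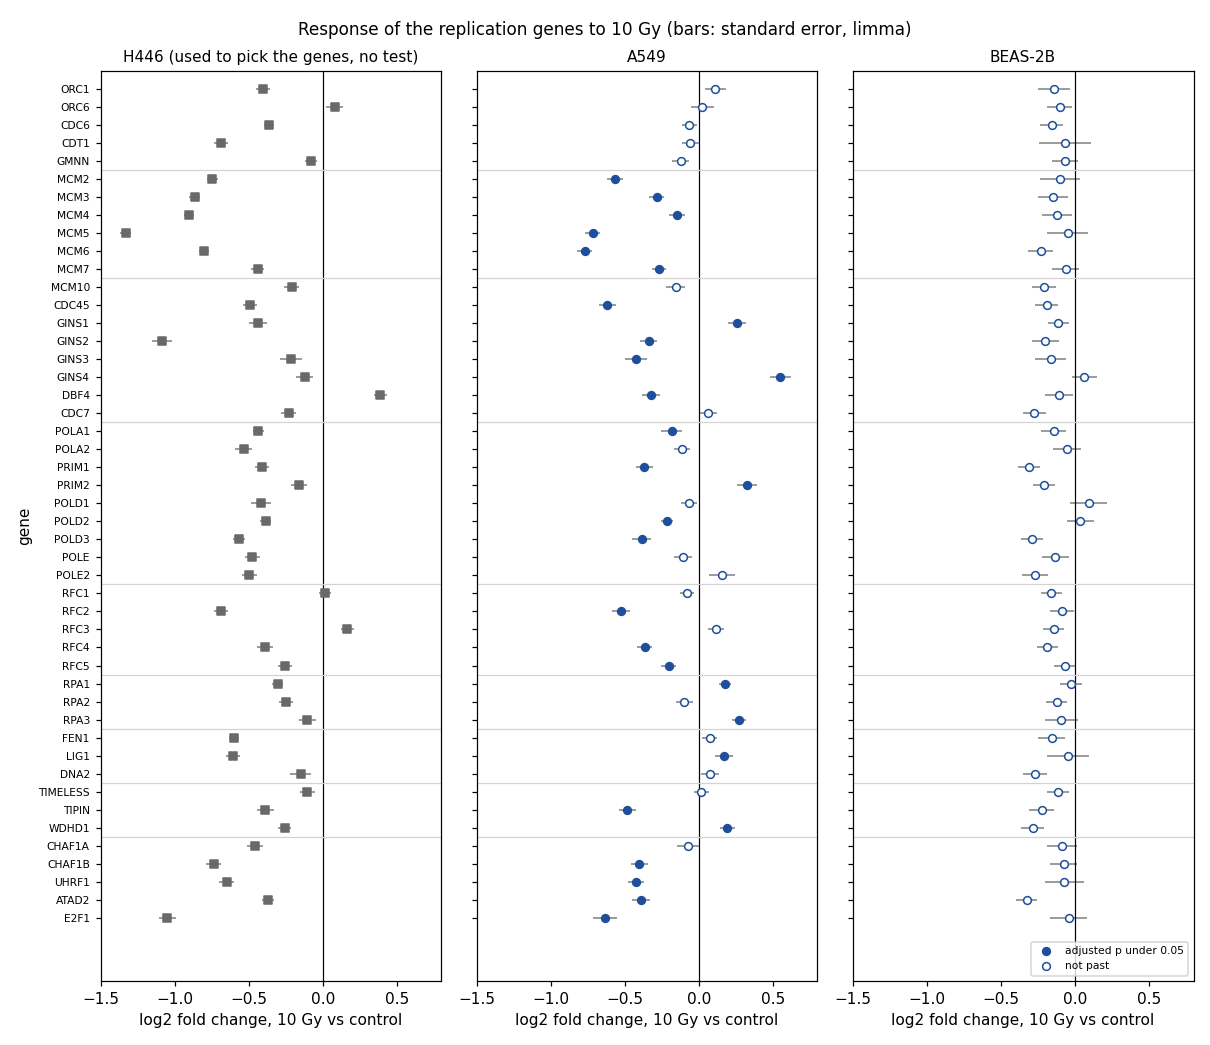
Log2 fold change (10 Gy against control, on log2(FPKM + 1)) of each member with its standard error in H446, A549 and BEAS-2B, ordered by role, where filled circles in A549 and BEAS-2B have a limma adjusted p under 0.05 and the grey squares of H446 carry no test. The squares lie mostly left of 0 in H446, the filled circles on both sides of it in A549 (22 lower, 7 higher), and BEAS-2B has no filled circle.

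Of the 5 genes of origin loading, 0 passed with limma in A549, where 51.7% of all genes passed, and 1 had an unadjusted p under 0.05. Their log2 fold changes ran from -0.12 for GMNN to 0.11 for ORC1. CDT1, the loading factor that is destroyed in S phase, had 13.8, 15.2 and 13.7 FPKM in A549 controls and 14.4, 13.4 and 13.1 FPKM after 10 Gy. The A549 groups overlapped, with a log2 fold change of -0.06 (SE 0.06, limma adjusted p = 0.409). In H446 the same gene had 25.7, 23.6 and 23.4 FPKM without and 15.2, 14.3 and 14.5 FPKM with radiation, a log2 fold change of -0.69 with every irradiated library below every control. ORC6, a subunit of the origin recognition complex, stood at 16.00, 16.5 and 16.5 FPKM in H446 controls and 15.8, 18.8 and 17.5 FPKM after 10 Gy, the highest log2 fold change of this group there at 0.08, with overlapping libraries. ORC1 and CDC6 had H446 log2 fold changes of -0.40 and -0.36. In BEAS-2B the log2 fold changes of the 5 genes lay between -0.16 and -0.07, and between -0.29 and -0.06 without irradiated replicate 2.

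All 6 subunits of the MCM2-7 helicase core fell in A549, where 26.4% of all genes fell, with a median log2 fold change of -0.42 for the 6. MCM6 had 25.6, 26.9 and 28.8 FPKM in A549 controls and 15.5, 15.7 and 15.1 FPKM after 10 Gy. The A549 groups were well separated, with a log2 fold change of -0.77 (SE 0.05, limma adjusted p = 1.9e-07). MCM5 went from 20.6, 22.6 and 21.6 FPKM to 12.7, 13.2 and 12.3 FPKM, a log2 fold change of -0.72 (SE 0.05, limma adjusted p = 3.87e-07). MCM2 followed with -0.56 on the log2 scale (SE 0.05, limma adjusted p = 5.11e-06). The other 3 fell less, by 0.28 for MCM3, 0.27 for MCM7 and 0.15 for MCM4 on the log2 scale. The MCM4 call (limma adjusted p = 0.0405) was lost in 10 of 16 other settings of the analysis, among them quantile normalization, which gave -0.12, and leaving out irradiated replicate 1 or 3 or control replicate 1 or 3.

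In H446 the 6 subunits had a median log2 fold change of -0.83, and the order differed from that in A549. MCM5 had 79.4, 76.8 and 76.8 FPKM in H446 controls and 31.4, 30.3 and 29.2 FPKM after 10 Gy, the lowest log2 fold change of all members at -1.33. MCM4, with the smallest change in A549, came second in H446 at a log2 fold change of -0.90, from 67.7, 70.2 and 69.8 FPKM to 37.3, 36.4 and 36.04 FPKM. MCM7 had the smallest difference of the 6, with 63.1, 63.8 and 64.1 FPKM in H446 controls, 50.02, 44.1 and 45.98 FPKM after radiation and a log2 fold change of -0.44. No irradiated H446 library reached a control library for any of the 6 subunits, where 29.9% of all genes lay lower without overlap.

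BEAS-2B gave no such separation for the helicase core. MCM5 had 54.01, 60.96 and 56.2 FPKM in BEAS-2B controls and 53.01, 70.5 and 44.5 FPKM after 10 Gy, so that irradiated replicate 2 exceeded all controls while the other 2 irradiated libraries lay below them. The log2 fold change was -0.05 (SE 0.14, limma adjusted p = 0.896), and -0.23 without irradiated replicate 2, which did not pass either (limma adjusted p = 0.372). On the log2 scale, the median of the 6 subunits lay 0.11 above their control mean in irradiated replicate 2 and at -0.16 and -0.31 relative to it in replicates 1 and 3. The A549 response was below the BEAS-2B response for MCM5 by 0.67 (SE 0.15, limma adjusted p = 0.00221), for MCM6 by 0.54 (SE 0.08, limma adjusted p = 0.000137) and for MCM2 by 0.46 (SE 0.14, limma adjusted p = 0.0172) on the log2 scale. That of MCM2 was lost without BEAS-2B control replicate 1, which gave a difference of -0.40. Without BEAS-2B irradiated replicate 2 the log2 differences were -0.49 for MCM5 and -0.30 for MCM2, and both passed. MCM3, MCM4 and MCM7 did not pass, with log2 differences of -0.13, -0.03 and -0.21, which became -0.01, 0.09 and -0.12 without that library and did not pass there either.

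**Figure D3:**
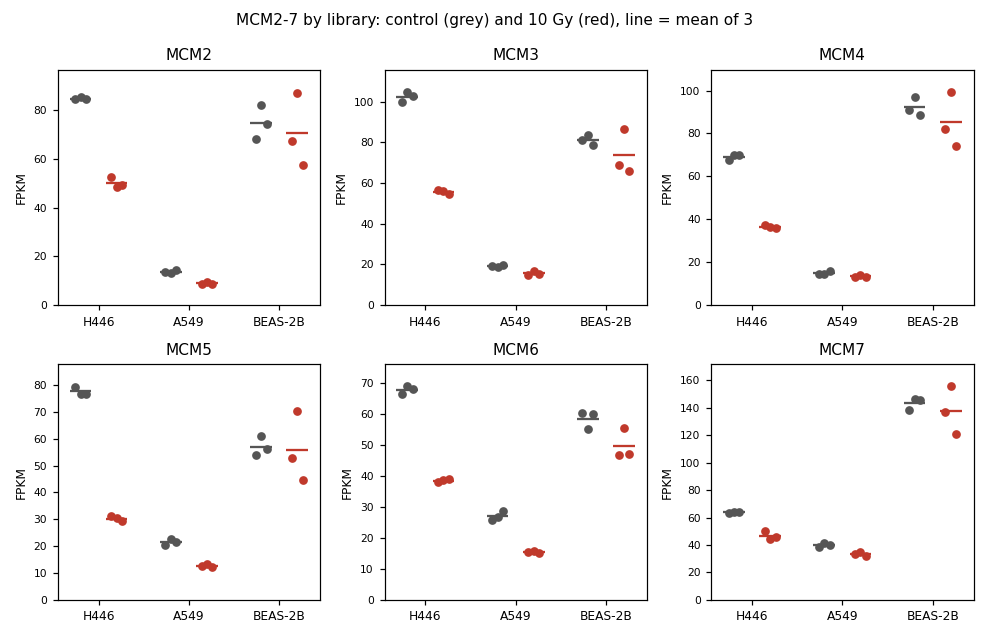
FPKM of MCM2 to MCM7 in each library of H446, A549 and BEAS-2B, controls in grey and 10 Gy in red, with a line at the mean of 3. The red points lie below all grey points for each subunit in H446 and A549, while in BEAS-2B 1 red point, irradiated replicate 2, lies among or above the grey ones for each subunit.

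Of the 8 factors that switch the helicase on, 4 fell, 2 rose and 2 did not pass in A549, where 26.4% of all genes fell and 25.3% rose. CDC45, which rides with the active helicase, fell by 0.62 on the log2 scale (SE 0.05, limma adjusted p = 2.64e-06). Both directions occurred within the GINS complex, whose 4 subunits bind as a unit. GINS4 had 3.69, 4.12 and 3.97 FPKM in A549 controls and 6.30, 6.69 and 5.66 FPKM after 10 Gy, the largest rise of any member at a log2 fold change of 0.55 (SE 0.07, limma adjusted p = 5.83e-05). GINS1 also rose, with a log2 fold change of 0.26 (SE 0.06, limma adjusted p = 0.00352). GINS2 had 11.8, 11.9 and 12.3 FPKM without and 9.20, 10.1 and 8.72 FPKM with radiation, so that it fell with a log2 fold change of -0.34 (SE 0.06, limma adjusted p = 0.000468). GINS3 fell as well, at a log2 fold change of -0.42 (SE 0.07, limma adjusted p = 0.000498). The groups did not overlap for any of the 4.

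In H446 the GINS subunits spread widely but not in opposite directions. GINS2 had 30.4, 31.9 and 37.5 FPKM in H446 controls and 14.8, 15.8 and 14.7 FPKM after 10 Gy, the second lowest log2 fold change of all members at -1.09. Log2 fold changes of -0.44 for GINS1, -0.22 for GINS3 and -0.12 for GINS4 followed. The response of A549 exceeded that of BEAS-2B by 0.49 on the log2 scale for GINS4 (SE 0.10, limma adjusted p = 0.00104) and by 0.37 for GINS1 (SE 0.08, limma adjusted p = 0.00285).

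DBF4, the activating subunit of the CDC7 kinase, was the 1 member that fell in A549 and was higher in H446. Its A549 values were 12.4, 11.7 and 12.9 FPKM in controls and 8.84, 10.2 and 9.98 FPKM after 10 Gy, a log2 fold change of -0.32 (SE 0.06, limma adjusted p = 0.00103). In H446 it had 16.2, 15.5 and 15.3 FPKM in controls and 20.3, 21.6 and 20.4 FPKM after 10 Gy, with every irradiated library above every control and a log2 fold change of 0.39. Its BEAS-2B values overlapped between the groups, from 22.3 to 24.5 FPKM in controls and from 18.8 to 23.7 FPKM after radiation. The kinase subunit CDC7 itself had log2 fold changes of -0.23 in H446, 0.06 in A549 and -0.27 in BEAS-2B, and the A549 response exceeded that of BEAS-2B by 0.34 (SE 0.08, limma adjusted p = 0.0038). In H446, DBF4 moved with the markers of G2 and mitosis. The FPKM of the 10 listed genes summed to between 620 and 635 in controls and to between 1109 and 1141 after 10 Gy. All 10 had a positive log2 fold change, as did 4922 of all 11479 genes. Their part in the DBF4 value was not tested.

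For each of the 9 polymerase and primase genes the irradiated H446 libraries lay below all controls, as for 29.9% of all genes, with a median log2 fold change of -0.44. In A549, 4 of the 9 fell, 1 rose and 4 did not pass, where 26.4% of all genes fell and 25.3% rose. The 2 primase subunits parted in A549. PRIM1, the catalytic subunit, fell with a log2 fold change of -0.37 (SE 0.05, limma adjusted p = 0.00016). PRIM2, the large subunit, had 7.27, 6.51 and 6.14 FPKM in A549 controls and 8.18, 8.43 and 9.06 FPKM after 10 Gy, a log2 rise of 0.32 (SE 0.07, limma adjusted p = 0.00172) without overlap. In BEAS-2B, PRIM2 had 23.03, 22.9 and 24.6 FPKM in controls and 19.4, 19.9 and 21.4 FPKM after radiation. Although the BEAS-2B groups did not overlap, its log2 fold change of -0.21 did not pass (SE 0.08, limma adjusted p = 0.314). The difference between the A549 and BEAS-2B responses was the largest of any member in the upward direction, 0.53 on the log2 scale (SE 0.09, limma adjusted p = 0.000304). In H446, PRIM2 had 17.6, 19.1 and 17.6 FPKM without and 16.2, 15.1 and 16.9 FPKM with radiation, the smallest H446 difference of this group at a log2 fold change of -0.16.

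POLD3, an accessory subunit of polymerase delta, had the lowest H446 log2 fold change of this group at -0.57, from 35.2, 32.5 and 35.2 FPKM in controls to 23.1, 22.3 and 23.1 FPKM after 10 Gy. It also fell in A549, where 16.6, 15.6 and 18.6 FPKM in controls stood against 11.9, 12.9 and 13.4 FPKM, a log2 fold change of -0.39 (SE 0.07, limma adjusted p = 0.000425). Of the other delta subunits, POLD2 fell in A549 by 0.21 on the log2 scale, and the catalytic subunit POLD1 had a value of -0.07 that did not pass. POLA1, the catalytic subunit of polymerase alpha, fell by 0.18, a call that was lost in 7 of 16 other settings, among them those that left out irradiated replicate 1 or 3 or any 1 control, with -0.12 on the log2 scale without irradiated replicate 1. POLE2 of polymerase epsilon had 0.16 on the log2 scale in A549 and -0.27 in BEAS-2B, neither past the threshold, while the difference of 0.43 between them passed (SE 0.12, limma adjusted p = 0.0106).

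Within the RFC clamp loader, RFC2, RFC4 and RFC5 fell in A549, where 26.4% of all genes fell, and RFC1 and RFC3 did not pass. RFC2 had 21.99, 22.9 and 20.4 FPKM in A549 controls and 15.3, 15.6 and 13.7 FPKM after 10 Gy, a log2 fold change of -0.52 (SE 0.06, limma adjusted p = 1.9e-05). Its H446 values were 42.6, 44.6 and 45.9 FPKM in controls and 27.6, 25.7 and 28.3 FPKM after 10 Gy, at a log2 fold change of -0.69 the lowest of the 5 subunits. RFC3 took the other end in H446, with 31.6, 31.7 and 30.2 FPKM in controls and 34.4, 36.6 and 34.3 FPKM after radiation, a log2 fold change of 0.17 that was 0.10 once each library's trend with GC content was removed. The RFC3 values in A549 were 14.9, 15.6 and 16.1 FPKM in controls and 17.2, 17.8 and 15.8 FPKM after 10 Gy, which overlapped. Between A549 and BEAS-2B, the responses differed by -0.44 on the log2 scale for RFC2 (SE 0.09, limma adjusted p = 0.00203) and by 0.26 for RFC3 (SE 0.07, limma adjusted p = 0.0115).

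In the single-strand binding trimer RPA, 2 of the 3 subunits rose in A549 and none fell, where 25.3% of all genes rose and 26.4% fell. RPA3, the smallest subunit, had 17.8, 16.7 and 16.3 FPKM in A549 controls and 21.2, 20.6 and 20.03 FPKM after 10 Gy, a log2 rise of 0.27 (SE 0.05, limma adjusted p = 0.000581). RPA1, the large DNA-binding subunit, had 35.7, 34.6 and 34.8 FPKM without and 40.5, 39.7 and 38.9 FPKM with radiation, a log2 rise of 0.18 (SE 0.04, limma adjusted p = 0.00229). Neither gene's groups overlapped. RPA2 did not pass, at a log2 fold change of -0.10. In H446 the RPA1 values went the other way, with 61.2, 60.1 and 60.2 FPKM in controls, 50.6, 47.4 and 48.4 FPKM after 10 Gy and a log2 fold change of -0.30. RPA3 overlapped between the H446 groups, at 16.5, 16.2 and 17.5 FPKM and 15.5, 16.7 and 14.4 FPKM.

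Of the genes that finish the lagging strand, LIG1, DNA ligase 1, was lower in H446, with 16.9, 18.1 and 17.2 FPKM in controls and 11.5, 10.9 and 10.9 FPKM after radiation, and a log2 fold change of -0.61. In A549 it had 16.8, 16.02 and 18.1 FPKM in controls and 19.2, 20.6 and 17.9 FPKM after 10 Gy. The A549 groups overlapped and the log2 rise of 0.17 (SE 0.06, limma adjusted p = 0.0325) was lost in 9 of 16 other settings, among them those without irradiated replicate 1 or 2 or control replicate 1 or 2. FEN1 did not pass in A549, at a log2 fold change of 0.07, and had a value of -0.60 in H446. DNA2, a nuclease and helicase, had the smallest H446 difference of the 3, with 5.67, 6.08 and 6.07 FPKM and 5.74, 4.75 and 5.30 FPKM in overlapping groups.

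Of the 3 fork protection genes, 1 fell, 1 rose and 1 did not pass in A549, where 26.4% of all genes fell and 25.3% rose. TIPIN, which forms a fork-stabilising pair with TIMELESS, had 21.5, 22.01 and 23.9 FPKM in A549 controls and 15.03, 17.1 and 15.2 FPKM after 10 Gy, a log2 fold change of -0.48 (SE 0.06, limma adjusted p = 3.55e-05). TIMELESS itself had 16.7, 16.2 and 17.3 FPKM and 16.6, 17.8 and 16.4 FPKM, which overlapped, at a log2 fold change of 0.02 (SE 0.05, limma adjusted p = 0.802). The same order held in H446, where TIPIN had 25.5, 23.6 and 21.7 FPKM in controls and 17.6, 17.8 and 17.96 FPKM after 10 Gy, and TIMELESS had 14.1, 14.4 and 14.97 FPKM and 13.7, 12.7 and 13.8 FPKM, a log2 fold change of -0.11. WDHD1, which links the helicase to polymerase alpha, had 11.1, 10.7 and 11.5 FPKM in A549 controls and 12.4, 13.2 and 12.8 FPKM after radiation, a log2 rise of 0.19 (SE 0.05, limma adjusted p = 0.00751). In BEAS-2B, WDHD1 had 21.4, 19.3 and 20.97 FPKM in controls and 16.00, 16.9 and 17.1 FPKM after 10 Gy, lower without overlap at a log2 fold change of -0.29 but not past the threshold (limma adjusted p = 0.25), which it passed with the replicate number as a block and in the joint fit. The A549 response exceeded that of BEAS-2B by 0.48 on the log2 scale (SE 0.07, limma adjusted p = 8.83e-05).

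E2F1, the transcription factor of the list, was 1 of 4 genes that fell in A549 among the 5 of chromatin assembly and transcription, where 26.4% of all genes fell. It had 7.59, 8.93 and 9.27 FPKM in A549 controls and 5.76, 4.92 and 4.89 FPKM after 10 Gy, a log2 fold change of -0.63 (SE 0.08, limma adjusted p = 4.89e-05). In H446 it had 37.9, 34.8 and 35.3 FPKM without and 17.9, 17.3 and 15.5 FPKM with radiation, at a log2 fold change of -1.05 the third lowest member. In BEAS-2B it had 42.9, 48.4 and 44.2 FPKM and 40.9, 54.95 and 37.3 FPKM, in which irradiated replicate 2 was again the highest of the 6 libraries. The A549 response was below that of BEAS-2B by 0.59 on the log2 scale (SE 0.15, limma adjusted p = 0.00695). Among the chromatin genes, the histone chaperone subunit CHAF1B fell by 0.40 on the log2 scale and the DNA methylation cofactor UHRF1 fell by 0.42 in A549, while CHAF1A, the partner of CHAF1B, did not pass at a log2 fold change of -0.07. ATAD2 fell in A549 at a log2 fold change of -0.39 (SE 0.06, limma adjusted p = 0.0002), from 20.2, 19.4 and 22.1 FPKM to 14.5, 16.5 and 15.4 FPKM. In BEAS-2B, ATAD2 had 110.4, 100.2 and 103 FPKM and 81.2, 83.3 and 85.2 FPKM, at a log2 fold change of -0.33 the lowest member of that line, which did not pass except with the replicate number as a block and in the joint fit. Its H446 values were 39.04, 39.02 and 38.2 FPKM in controls and 28.2, 30.2 and 30.9 FPKM after 10 Gy, the smallest difference of the 5 genes at a log2 fold change of -0.37.

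**Figure D4:**
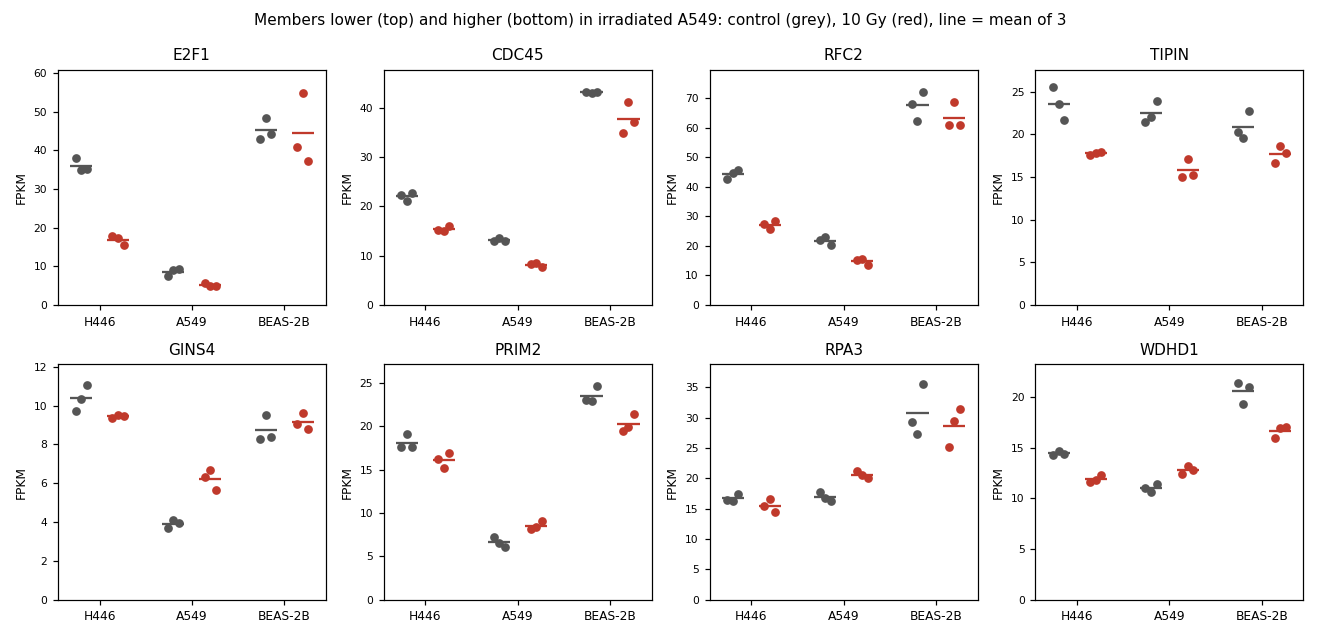
FPKM in each library of H446, A549 and BEAS-2B for 4 members that fell in A549 (top: E2F1, CDC45, RFC2, TIPIN) and 4 that rose there (bottom: GINS4, PRIM2, RPA3, WDHD1), controls in grey and 10 Gy in red, with a line at the mean of 3. In A549 the red and grey points are apart in all 8 panels, and in H446 the mean of the red points is below that of the grey ones in all 8.

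Setting the lines side by side, the choice of members fixes most of the overlap, since 40 of the 47 lay lower without overlap in H446, as did 29.9% of all genes. Among those that fell in A549, DBF4 was the 1 not lower in H446. Of the 7 that rose in A549, GINS1, GINS4, PRIM2, RPA1, LIG1 and WDHD1 were lower without overlap in H446 and RPA3 overlapped. Whether the responses of A549 and H446 differ was not tested, since the H446 values chose the members. By separation of the groups in A549, 23 members were lower and 7 higher without overlap, where the shares over all genes were 29.5% and 29.0%.

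In BEAS-2B, 44 of the 47 members (93.6%) had a negative log2 fold change, against 49.6% of all genes tested and 74.5% of the further replication genes. The members' median was -0.12, beside 0.00 for all genes tested. None passed with limma, the smallest adjusted p being 0.241, although 14 members (29.8%) and 1446 of all genes (12.3%) had an unadjusted p under 0.05. For 15 members the irradiated libraries lay below all controls and for 0 above them, where 8.87% of all genes lay below and 7.48% above. PRIM1 had 61.4, 57.1 and 61.8 FPKM in BEAS-2B controls and 46.5, 51.1 and 47.1 FPKM after 10 Gy, a log2 fold change of -0.31 (SE 0.07, limma adjusted p = 0.241). Irradiated replicate 2 stood apart, since its median member lay at -0.04 relative to the controls, against -0.16 in replicate 1 and -0.22 in replicate 3, and 22 members were above that mean in replicate 2 but 2 and 4 in the others. Without that library the median was -0.21, 46 members were negative and 1, PRIM1, passed, where 1.99% of all genes did. The share of all genes that were negative there is not given. With the replicate number as a block, PRIM1, CDC7, WDHD1, ATAD2 and POLD3 passed, where 3.74% of all genes did. In the joint fit over all 18 libraries, PRIM1, CDC7, MCM6, DNA2, WDHD1, ATAD2 and POLD3 passed in BEAS-2B, each lower after 10 Gy, where 7.01% of all genes did. The trend with GC content of each library's deviation from the mean of all BEAS-2B libraries also varied. Rank correlations across genes were 0.45, 0.70 and -0.31 in the irradiated libraries and -0.63, 0.01 and -0.38 in the controls. With that trend removed the median was -0.15 and still 0 members passed.

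**Figure D5:**
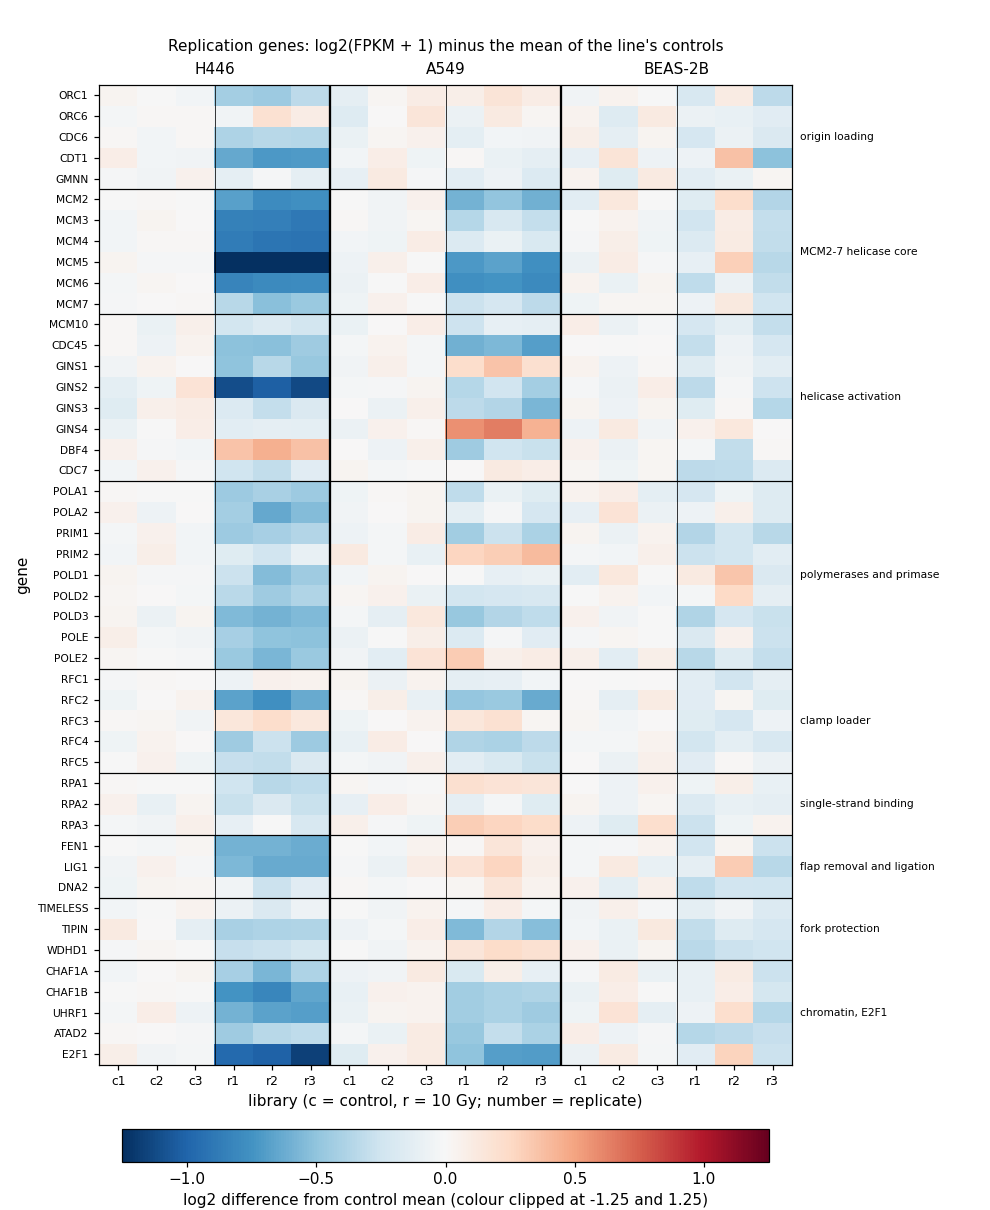
Difference of each library from the mean of its line's controls, in log2(FPKM + 1), for the 47 members in rows and the 18 libraries in columns, blue below and red above that mean. The irradiated H446 columns are blue for most genes, those of A549 mix blue rows with red ones such as GINS4 and PRIM2, and BEAS-2B irradiated replicate 2 is paler or redder than replicates 1 and 3.

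The responses of A549 and BEAS-2B were also compared directly, as the difference of the log2 fold changes in a fit over all 18 libraries. They differed for 18 members (38.3%), where 30.6% of all 13071 genes and 36.2% of the further replication genes passed. Of the members, 8 were lower in A549 (17.0%, against 16.0% of all genes) and 10 higher (21.3% against 14.6%). The members' median difference was -0.04, beside 0.00 for all genes. The 8 were MCM5, E2F1, MCM6, MCM2, RFC2, CDC45, CHAF1B and POLD2, and the 10 were PRIM2, GINS4, WDHD1, POLE2, GINS1, RPA3, DNA2, CDC7, RFC3 and RPA1. Without BEAS-2B irradiated replicate 2, 21 members passed, 8 lower and 13 higher in A549. Of all genes 30.0% passed there, 1815 of these 3920 genes being higher. The members' median difference was then 0.0044, of the opposite sign. Without BEAS-2B control replicate 1, 14 members passed, 5 lower and 9 higher in A549.

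In H446 other measures moved with the values of the members. The rank correlation with GC content was taken on each library's deviation from the mean of all libraries of the line. It lay between 0.35 and 0.46 in the controls and between -0.50 and -0.11 after 10 Gy. Since the deviations are centred on that mean, opposite signs in controls and irradiated libraries are partly built in. With the GC trend removed the members' median was -0.37. The genes of G2 and mitosis were higher, as given beside DBF4. In A549, 5 of these 10 genes rose and 1 fell, where 25.3% of all genes rose and 26.4% fell. Their sum there was between 424 and 442 FPKM in controls and between 471 and 512 FPKM after 10 Gy. In BEAS-2B 0 passed with limma, and 4 had an unadjusted p under 0.05, as did 12.3% of all genes. The BEAS-2B sums were between 945 and 979 FPKM in controls and between 941 and 1215 FPKM after 10 Gy. The part of these genes in the members' values was not tested.

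A further 47 replication genes that are not members, such as other origin factors, cyclins, the clamp and other E2F genes, gave a context. In A549, 10 of them rose (21.3%, against 25.3% of all genes) and 16 fell (34.0% against 26.4%). In BEAS-2B 0 passed with limma, and 13 had an unadjusted p under 0.05 (27.7% against 12.3%). In H446, described without a test, 11 lay higher and 29 lower without overlap, where 20.4% and 29.9% of all genes did, with a median of -0.15. PCNA, the sliding clamp loaded by RFC and a known p53 target, had 141, 144 and 146 FPKM in A549 controls and 380.03, 400.1 and 353 FPKM after 10 Gy, a log2 rise of 1.38 (SE 0.05, limma adjusted p = 6.29e-10). In H446 it went the other way, from 150.2, 152 and 159.8 FPKM to 85.8, 87.7 and 80.3 FPKM at -0.86, and in BEAS-2B its log2 fold change was -0.02 (SE 0.08, limma adjusted p = 0.938). PCNA thus rose in A549, where RFC2, RFC4 and RFC5 of its loader fell.

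E2F7, a repressor of the E2F family, rose in A549 at a log2 fold change of 0.69 (SE 0.07, limma adjusted p = 1.17e-05), from 2.99, 2.61 and 2.74 FPKM to 4.93, 5.57 and 4.85 FPKM. ATAD5, which unloads the clamp, had 5.18, 5.03 and 5.63 FPKM in controls and 6.48, 7.61 and 6.90 FPKM after 10 Gy in A549 and rose at a log2 fold change of 0.35 (SE 0.07, limma adjusted p = 0.0013). The largest fall among these genes in A549 was that of ORC5 of the origin recognition complex, with 22.99, 21.7 and 22.4 FPKM in controls and 13.8, 15.5 and 14.8 FPKM after 10 Gy, a log2 fold change of -0.57 (SE 0.05, limma adjusted p = 2.81e-06). The histone chaperone subunit SSRP1 followed with 126, 126 and 128 FPKM in controls and 91.01, 92.2 and 86.2 FPKM after 10 Gy, a log2 fold change of -0.49 (SE 0.04, limma adjusted p = 6.3e-07). E2F4 had 32.7, 31.8 and 31.6 FPKM in controls and 23.97, 22.6 and 22.7 FPKM after 10 Gy, a log2 fold change of -0.46 (SE 0.04, limma adjusted p = 3.94e-06). The A549 groups did not overlap for E2F7, ATAD5, ORC5, SSRP1 or E2F4. The cyclins that drive entry into S phase were low in irradiated H446. CCNE1 had 25.9, 21.5 and 22.9 FPKM in H446 controls and 10.1, 9.24 and 9.62 FPKM after 10 Gy. For CCNE2 the values were 25.2, 23.2 and 23.4 FPKM and 10.6, 9.32 and 9.57 FPKM, and both had a log2 fold change of -1.20. CCNA2, the cyclin of S phase and G2, was higher there, with 62.03, 62.95 and 62.5 FPKM in controls and 107, 109.96 and 109.7 FPKM after 10 Gy and a log2 fold change of 0.79. The topoisomerase TOP2A had 89.6, 89.3 and 88.4 FPKM in controls and 141, 146 and 154 FPKM after 10 Gy, at a log2 fold change of 0.71, and TOP1 had 50.7, 51.8 and 53.5 FPKM in controls and 61.03, 66.5 and 66.8 FPKM after 10 Gy, at 0.31.

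The E2F words were set against the responses as a description. In A549 the median log2 fold change was -0.15 for the 20 members with such a word and -0.08 for the 19 without, and 10 and 8 of them fell. GINS1 and LIG1 rose in A549 with an E2F word in both promoters, and of the genes whose promoters are printed GINS2, E2F1, MCM3, MCM6 and MCM2 fell there while CDT1 did not pass. In H446 the medians were -0.49 and -0.38.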

How the data were processed

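The deposited table holds 1 value per gene and library for 18475 genes and 18 libraries. The authors aligned poly(A)-selected RNA-seq reads to hg38, and the submitters' processing notes name HISAT2 2.0.4, Bowtie2 2.2.5 and RSEM 1.2.12. The deposited values carry no unit, and their range and totals led to their treatment as FPKM. Read depth per library is not given in the sources used here, so precision rests on the spread of 3 libraries.

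Values were analysed as log2(FPKM + 1), so that fold changes of low genes are understated. Each line was fitted separately with limma 3.58.1 in R 4.3.3 (trended eBayes), keeping genes that reached 1 FPKM in 3 or more of its 6 libraries, with Benjamini-Hochberg adjustment over all of them and a threshold of 0.05. The difference between the responses, and that between controls, came from 1 fit over all 18 libraries with 6 group means. The script was tested on simulated data. Promoter words were counted in RefSeq sequences. Figures used matplotlib 3.10.9.

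The members and all lists were chosen with earlier results of these data known. All 47 members could be named. Values per library were given for the members with the lowest and highest H446 fold change in each of 9 roles, the 3 largest rises and falls in A549 and the 3 largest response differences each way, and for the 3 largest rises and falls of the other replication genes. Which of the other members were named, and with which values, was chosen after their values were seen. Alternatives were quantile normalization, equal totals, removal of the GC trend (loess, span 0.5), other filters, a pseudocount of 0.1, no trend, the replicate number as a block, a threshold of 0.01, a joint fit, and each library left out. Protein sequences were not used here.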

Additional observations from a re-analysis of the deposited data

Results flagged for a closer look

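The response to 10 Gy differed between A549 and BEAS-2B for 18 members (38.3%) by a limma test of the difference itself. Of all genes 30.6% passed the same test, 16.0% lower and 14.6% higher in A549. On the log2 scale, A549 minus BEAS-2B, the lower side held -0.67 for MCM5, -0.59 for E2F1, -0.54 for MCM6, -0.46 for MCM2, -0.44 for RFC2, -0.43 for CDC45, -0.33 for CHAF1B and -0.25 for POLD2. The higher side held 0.53 for PRIM2, 0.49 for GINS4, 0.48 for WDHD1, 0.43 for POLE2, 0.37 for GINS1, 0.36 for RPA3, 0.34 for DNA2, 0.34 for CDC7, 0.26 for RFC3 and 0.20 for RPA1. For CDC7, DNA2, POLE2 and RFC3 neither line's own comparison passed, although CDC7 passed in BEAS-2B with the replicate number as a block, and CDC7 and DNA2 did in the joint fit.

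Of the 18, 10 passed under all 27 other settings that were run. POLE2 and RFC3 were lost only at the stricter threshold of 0.01, DNA2 there and with the GC trend removed (0.24), and CHAF1B and MCM2 there and without BEAS-2B control replicate 1 (-0.28 and -0.40). POLD2 was lost in 20 settings, with -0.15 without BEAS-2B irradiated replicate 2. RPA1 was lost in 10, among them those without A549 irradiated replicate 1, A549 control replicate 2 or 3, BEAS-2B irradiated replicate 1 or 3 or BEAS-2B control replicate 1 or 3, with values from 0.17 to 0.20. RPA3 was lost in 7, among them those without A549 irradiated replicate 1 or 2, A549 control replicate 2 or 3, BEAS-2B irradiated replicate 1 or BEAS-2B control replicate 3, with values from 0.26 to 0.36.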

How the results depend on the processing

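The count of members past the threshold stayed within 1.5 times its value in A549 (26 to 30 against 29) and, as a description of the comparison that chose the members, in H446 (37 to 41 against 40) under each setting. In BEAS-2B it went from 0 to 5 with the replicate number as a block (PRIM1, CDC7, WDHD1, ATAD2 and POLD3), where 3.74% of all genes passed, to 7 in the joint fit, where 7.01% did, and lay between 0 and 1 with 1 library left out, the 1 being reached without irradiated replicate 2. The other replication genes in BEAS-2B went from 0 to 5, to 11, and to between 0 and 2 under the same settings. At a threshold of 0.01, 10 members passed in the comparison of responses in place of 18. The shares of all genes are not given for that threshold or for the A549 and H446 ranges. These counts therefore do not set the members apart from other genes. The members' median in BEAS-2B lay between -0.21 and -0.10 with 1 library left out. In H446 it was -0.39 after quantile normalization, -0.39 with equal totals, -0.37 with the GC trend removed and -0.43 with a pseudocount of 0.1, and lay between -0.43 and -0.40 with 1 library left out. Same-numbered libraries did not deviate together in every pair (r from -0.10 to 0.01 in A549, -0.13 to 0.32 in BEAS-2B and 0.01 to 0.19 in H446), so the replicate block was not used as a pairing. In A549, GMNN and MCM10 passed without control replicate 1, POLA2 without irradiated replicate 2, RFC3 without irradiated replicate 3 and POLE2 without control replicate 3. Without BEAS-2B irradiated replicate 2 the responses also differed for DBF4, FEN1, LIG1 and ORC1. The cause of these shifts was not tested. Read numbers were not recovered, so the part of depth in the spread is not given.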
